A study of Mus musculus with 177 samples.

Results

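The brain of the 7-day-old mouse was described from 18 arrays of animals that never breathed low oxygen, out of 177 arrays in the series. Members were chosen by sample title: 9 brain arrays of the group given 100% oxygen for 30 min (N100) and 9 of the group kept at 21% oxygen (N21). They were set against lung (10 N100 and 9 N21 arrays) and eye (9 N100 and 9 N21 arrays) of the same study. All of these mice were C57BL/6 at postnatal day 7. They breathed air (an inspired oxygen fraction of 0.21) for 120 min, then 100% or 21% oxygen for 30 min, then air for 150 min before the tissues were taken. Other groups of the series were first made hypoxic: they breathed low oxygen, in place of air, for the first 120 min. For the next 30 min they were given 21% oxygen, 100% oxygen or a level in between, depending on the group. These groups serve here only as further mice of the same age. RNA abundance was measured on whole-transcript Affymetrix arrays. The labels do not state which part of the brain was taken. The RNA protocol in the labels is one for blood (a kit for blood RNA after a Ficoll gradient), whereas the design text names tissue kept in RNAlater.

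In the rodent brain the early postnatal weeks follow the birth of most forebrain neurons. Axons and dendrites grow, synapses form, GABA (the main inhibitory transmitter) passes from depolarizing to hyperpolarizing action, astrocytes mature, and oligodendrocyte precursors begin to give rise to myelinating cells. The cerebellum is late: its granule cell precursors still divide in an outer layer, and the Purkinje cells (the output neurons of its cortex) are still extending dendrites. The eye contains the retina, which is itself central nervous tissue with neurons, synapses and glia, together with lens, cornea and muscle. The lung has airway and alveolar epithelium, a dense capillary bed, smooth muscle and blood cells. Against these tissues a gene was called higher in brain only when it exceeded both by more than 2 on the log2 scale (4-fold), with a Benjamini-Hochberg adjusted p under 0.05 in both comparisons (limma, 19937 genes). That size was required because the values appeared to have been normalized within each tissue (median log2 values 6.07 in brain, 6.25 in lung and 6.35 in eye). All levels below are log2 signals of a probe set and all differences are log2 differences of the same probe set. The design text describes randomized mice, and arrays of 1 tissue were taken as separate animals, so errors and p-values measure the spread between arrays. In whole tissue, fewer cells of a type and less RNA per cell cannot be told apart.

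Of the 19937 genes, 360 (1.81%) were higher in brain than in both other tissues and 136 (0.682%) were lower than in both. With no minimum size, 4349 (21.8%) were above both at the same adjusted p. Every brain array correlated best with the brain profile (r across genes 0.9766 to 0.997), less with eye (0.8936 to 0.9028) and least with lung (0.7965 to 0.8092). One array, N21 replicate 7, stood apart from the other brain arrays. Its median correlation with them was 0.971, against 0.9841 to 0.9916 for the others. Without it 369 genes were higher in brain, 355 of them among the 360, and 138 were lower, with all 136 among them. Setting all arrays to 1 median raised the first count to 536 and took the second to 94, a move in the share of higher calls to 85.1%, against 72.6% as reported. Joint quantile normalization gave 380 and 111 (77.4%).

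The 2 markers named for neurons were far above lung but only modestly above eye. Syt1, the calcium sensor for fast transmitter release, had a lowest, median and highest value of 11.53, 12.20 and 12.46 in brain, against 5.08, 5.44 and 5.80 in lung and 10.18, 11.19 and 11.72 in eye. Brain and lung arrays lay far apart, while brain and eye arrays overlapped. The difference was 6.72 ± 0.08 (SE) from lung and 0.98 ± 0.08 from eye. Nefl, the light neurofilament subunit, had 10.20, 10.66 and 11 in brain, against 4.17, 4.50 and 4.86 in lung and 9.09, 9.35 and 9.93 in eye, with differences of 6.15 ± 0.07 and 1.24 ± 0.07. Brain values of Nefl lay above all eye values. Both genes were thus higher in brain than in lung, and neither met the rule against eye. Of all genes, 1162 (5.83%) were above lung and 413 (2.07%) above eye. The smaller of a called gene's differences had a median of 2.35 and a maximum of 5.80; 60 genes exceeded 3, 9 exceeded 4 and 1 exceeded 5. For all 360, the lowest brain array was above the highest lung and eye array, a pattern that 8.42% of all genes showed.

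**Figure D1:**
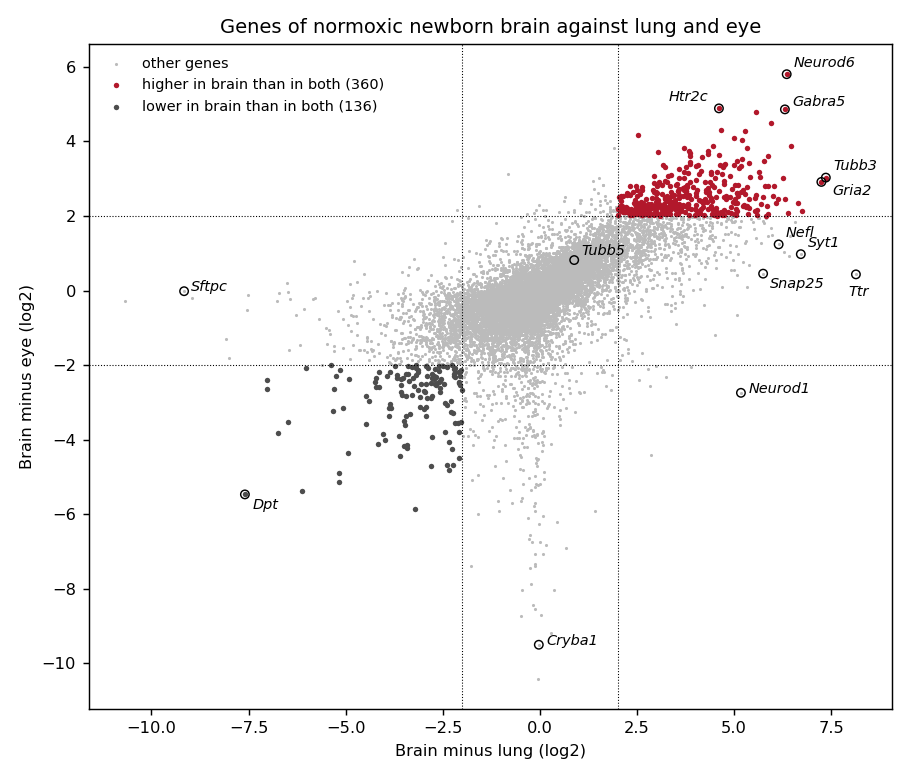
Each point is 1 of the 19937 genes, placed by its brain minus lung difference (x, log2) and brain minus eye difference (y, log2), with dotted lines at the threshold of 2. The 360 red genes lie above both lines and the 136 dark genes below both; Syt1, Nefl and Snap25 lie far to the right but under the upper line.

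Some regulatory sequence of the called genes is shown because these promoters hold a match to the element bound by REST, a repressor that silences neuronal genes outside neurons and is known for sites in Syn1, Gria2 and other genes of this kind. Promoters of 300 bases (250 before to 50 after the gene start) from RefSeq, build GRCm38.p6, were held for 268 of the 360 genes and for 15613 of all genes tested. The core of the element, AGCACC followed after any 2 bases by GGACAG, on either strand, occurred in 2 of the 268 (0.746%, Gad2 and Gria2), against 14 of the 15613 (0.0897%) and 0 of 105 genes lower in brain. Its left part, TTCAGCACC, which overlaps the core by the letters AGCACC, occurred in 7 of the 268 (2.61%), against 77 of the 15613 (0.493%) and 0 of the 105. A match is a description of letters and not a site in use. Syn1, which coats synaptic vesicles, lies outside the naming rule and was chosen for its match. Capitals mark the match in each sequence, written 5′ to 3′ on the gene's strand. Gad2 lies at chr2:22622077-22622376 (plus strand, match starting at -163 from the gene start), Gria2 at chr3:80802786-80803085 (minus strand, match at -170 on the opposite strand to the gene) and Syn1 at chrX:20920869-20921168 (minus strand, match at -232).
Gad2: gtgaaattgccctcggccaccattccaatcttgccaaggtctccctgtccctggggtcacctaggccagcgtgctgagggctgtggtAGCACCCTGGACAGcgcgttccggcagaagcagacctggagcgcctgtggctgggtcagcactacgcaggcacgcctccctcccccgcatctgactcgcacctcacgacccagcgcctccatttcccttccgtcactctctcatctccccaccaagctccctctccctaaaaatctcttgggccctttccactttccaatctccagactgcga
Gria2: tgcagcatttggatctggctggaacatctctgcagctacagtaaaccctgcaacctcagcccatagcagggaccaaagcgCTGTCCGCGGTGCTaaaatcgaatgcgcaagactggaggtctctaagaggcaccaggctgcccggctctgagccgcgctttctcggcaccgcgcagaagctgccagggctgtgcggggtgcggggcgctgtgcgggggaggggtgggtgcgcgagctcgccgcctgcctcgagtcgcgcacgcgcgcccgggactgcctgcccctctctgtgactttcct
Syn1: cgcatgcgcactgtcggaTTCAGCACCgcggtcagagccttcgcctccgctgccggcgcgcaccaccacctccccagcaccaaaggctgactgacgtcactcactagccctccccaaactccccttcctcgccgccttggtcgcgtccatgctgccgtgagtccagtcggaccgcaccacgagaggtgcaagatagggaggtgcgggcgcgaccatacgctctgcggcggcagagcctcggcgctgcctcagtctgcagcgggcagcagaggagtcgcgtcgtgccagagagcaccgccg

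Mir137 was the only microRNA gene among the 360, and its mature arms from RefSeq (GRCm38.p6) are shown with the seed, bases 2 to 8, in capitals. The 5p arm lies at chr3:118433865-118433887 and the 3p arm at chr3:118433901-118433923, both on the plus strand. The array probes read the precursor or host transcript rather than the mature arms.
mmu-miR-137-5p: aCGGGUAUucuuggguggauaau
mmu-miR-137-3p: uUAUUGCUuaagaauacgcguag
The Mir137 probe set had 4.58, 4.98 and 5.47 in brain (lowest, median, highest), against 2.48, 2.77 and 3.79 in lung and 2.42, 2.71 and 3.08 in eye. Brain overlapped neither tissue, and the differences were 2.07 ± 0.11 and 2.28 ± 0.11. With the N21 arrays alone the difference from lung was 1.95, short of the threshold. None of the other 16 microRNA genes of a list known from neural tissue was called (17 measured), and the list medians were 0.20 against lung and 0.04 against eye. The closest, Mir9-1, a microRNA of neural progenitors, differed by 1.91 from lung and 0.75 from eye.

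Genes of excitatory neurons of the cortex and hippocampus included the gene with the largest measured difference by the rule. Neurod6, a transcription factor of differentiating pyramidal neurons, had 8.47, 9.33 and 9.91 in brain, against 2.70, 2.88 and 3.03 in lung and 3.01, 3.39 and 3.74 in eye. The differences were 6.35 ± 0.09 from lung (adjusted p = 1.62e-54 by limma) and 5.80 ± 0.09 from eye (adjusted p = 1.72e-51). The lung and eye values lie near the low end of the deposited values, which began at 1.5, and detection above background was not analysed here. Tbr1, which specifies deep-layer cortical neurons, had 8.41, 9.20 and 9.55 in brain, against 4.54, 4.78 and 5.18 in lung and 5.20, 5.54 and 5.73 in eye (differences 4.33 ± 0.07 and 3.66 ± 0.08). Camk2a, a kinase of excitatory synapses, had 9.39, 10.05 and 10.69 in brain, against 5.43, 5.68 and 5.81 in lung and 6.02, 6.23 and 6.51 in eye. Nrgn, a calmodulin-binding protein of dendritic spines, had 9.96, 10.37 and 10.66 in brain, against 6.26, 6.56 and 7.58 in lung and 6.09, 6.43 and 7.68 in eye. In none of these 4 genes did brain overlap another tissue. Of 14 measured excitatory genes, 6 were higher in brain than in both, with list medians of 4.08 and 1.46, beside -0.11 and -0.13 over all genes. Rorb and Neurod1 of this list were lower than in eye by the rule (-2.055 and -2.74). Slc17a7, the vesicular glutamate transporter that retinal photoreceptors also use, was 4.32 above lung and only 0.89 above eye.

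Several other genes stood near the top, while none of 11 forebrain and midbrain regional factors was above both (medians 0.63 and 0.32). Lmo3, a transcriptional cofactor, had 9.93, 10.95 and 11.28 in brain, against 4.74, 5.22 and 5.96 in lung and 5.80, 6.01 and 6.41 in eye. Chl1, an adhesion molecule of the L1 family that guides neurite growth, had 9.49, 10.10 and 10.51 in brain, against 3.63, 4.05 and 5.25 in lung and 5.12, 5.64 and 6.00 in eye. Both were separated from the other tissues by more than 3 units even at their extremes. Mpped1, Neto1 (an auxiliary subunit of glutamate receptors), Camkv, Ddn (dendrin, of dendrites) and Lrrc7 (densin, of the postsynaptic density) were also among the 25 largest, with smaller differences of 4.31, 4.27, 3.60, 3.69 and 3.40.

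Receptor subunits gave the lists with the largest medians against eye. Of 14 glutamate receptor subunits, 8 were called (medians 4.06 and 2.40), and of 12 GABA and glycine receptor subunits, 7 were called (4.85 and 2.24). Gabra5, the alpha 5 subunit of extrasynaptic GABA-A receptors and abundant in hippocampus, had 10.36, 10.81 and 11.09 in brain, against 4.09, 4.50 and 4.75 in lung and 5.45, 5.95 and 6.30 in eye (differences 6.31 ± 0.06 and 4.86 ± 0.06). Grm5, a metabotropic glutamate receptor prominent in young neurons, had 10.54, 10.94 and 11.31 in brain, against 5.24, 5.60 and 5.90 in lung and 6.57, 7.08 and 7.68 in eye. Grin2b, the NMDA receptor subunit that predominates before Grin2a in development, had 9.40, 10.23 and 10.67 in brain, against 4.39, 4.62 and 5.59 in lung and 6.21, 6.67 and 7.03 in eye. In these genes the lowest brain array was above every array of lung and eye. Gria2, the AMPA receptor subunit that limits calcium entry and whose promoter is printed above, had 10.19, 10.93 and 11.29 in brain, against 3.05, 3.71 and 4.01 in lung and 7.51, 7.99 and 8.49 in eye. It was 7.25 ± 0.09 above lung and 2.91 ± 0.09 above eye. Grm3 (3.88), Gabrb1 (3.53), Grin3a (3.37), Grin2a (2.93), Gabrg1 (2.85) and Gabra4 (2.78) were called too, the value being the smaller difference. Glra2, a glycine receptor subunit of immature neurons and retina, was 6.58 above lung and 1.83 above eye. The serotonin receptor Htr2c, strong in choroid plexus as well as in neurons, had 9.0, 9.46 and 9.88 in brain, against 4.30, 4.84 and 4.97 in lung and 4.06, 4.51 and 4.82 in eye (differences 4.61 ± 0.07 and 4.89 ± 0.07).

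**Figure D2:**
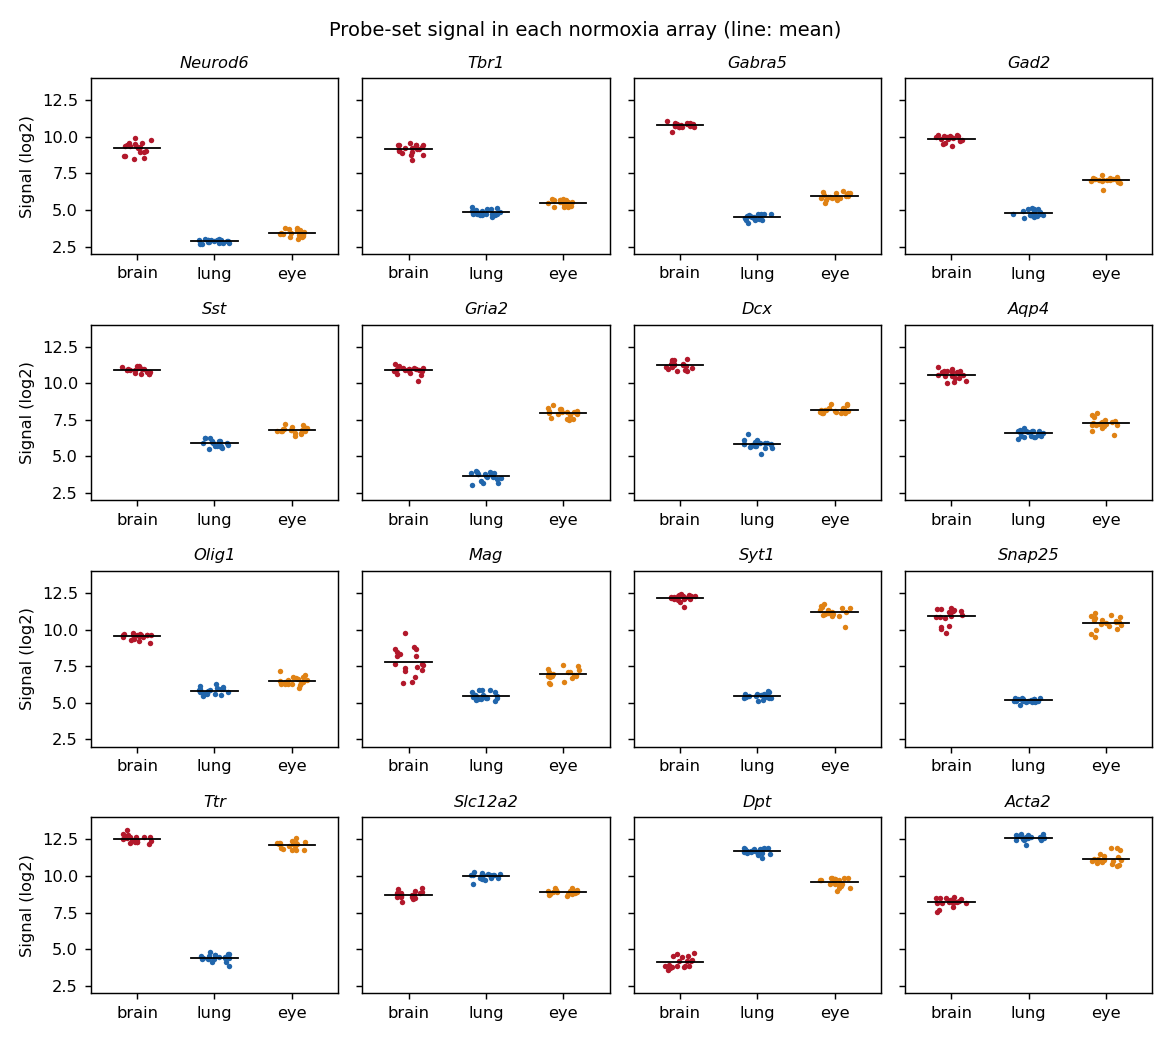
Log2 signal of 16 genes in each of 18 brain, 19 lung and 18 eye arrays (points; the line is the mean). Neurod6, Tbr1, Gabra5, Gad2, Sst, Gria2, Dcx, Aqp4 and Olig1 separate brain from both other tissues, Syt1, Snap25 and Ttr are high in brain and eye, and Mag spreads from 6.33 to 9.75 among brain arrays.

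Voltage-gated channels followed the receptors, with 8 of 16 called (medians 3.25 and 2.05). The A-type potassium channel Kcnd2 was 4.75 above lung and 3.37 above eye, and Cacna1e, an R-type calcium channel, 3.71 and 3.18. Kcnq3, which carries the M current, differed by 3.78 and 2.83, and Scn3a, the sodium channel typical of the developing brain, by 4.02 and 2.54. Scn8a, which takes over at mature nodes and axon initial segments, differed by 3.28 from lung and by 1.67 from eye and was not called.

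Of 15 measured genes of inhibitory neurons, 5 were higher than in both tissues (medians 3.23 and 1.28) and 1, Pvalb, of fast-spiking interneurons, was below eye (-2.56; named after its values were seen). Gad2, which makes GABA and whose promoter is printed above, had 9.37, 9.95 and 10.15 in brain, against 4.49, 4.71 and 5.13 in lung and 6.35, 7.07 and 7.37 in eye (differences 5.10 ± 0.07 and 2.84 ± 0.07). Sst, the peptide somatostatin of a class of interneurons, had 10.61, 10.91 and 11.16 in brain, against 5.53, 5.90 and 6.28 in lung and 6.42, 6.79 and 7.21 in eye (5.01 ± 0.07 and 4.09 ± 0.07). Dlx1, a homeobox factor of newly generated forebrain interneurons, had 8.09, 8.81 and 9.49 in brain, against 5.05, 5.56 and 5.93 in lung and 5.51, 5.73 and 6.23 in eye. Brain arrays lay above all others in these genes. Gad1, the other GABA-making enzyme, had 9.43, 10.45 and 10.61 in brain, against 5.38, 5.85 and 6.42 in lung and 8.07, 9.01 and 9.34 in eye, where amacrine cells of the retina use it, and at 1.43 above eye it was not called. Calb2 and Npy were 5.08 and 3.62 above lung but 0.41 and 0.19 above eye. Among peptides and monoamine genes, Nts (neurotensin) was called at 4.69 and 3.14 and Slc6a3 (the dopamine transporter) at 2.15 and 2.12, while Tph2, the serotonin-making enzyme of the raphe, differed by 2.16 and 1.69. In all, 2 of 15 neuropeptide and 1 of 11 monoamine and cholinergic genes were called. For the striatum 1 of 10 was called, Ppp1r1b (DARPP-32), at 2.13 and 2.18.

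General neuronal genes and the release machinery were shared with the eye. All 18 measured general neuronal genes were above lung by the rule and 5 were above both tissues (medians 4.92 and 1.78). Of 18 vesicle release genes 17 were above lung and 5 above both (4.29 and 1.46). Snap25, a membrane-fusion protein, had 9.78, 11.04 and 11.51 in brain, against 4.85, 5.15 and 5.35 in lung and 9.46, 10.52 and 11.15 in eye, so that brain and eye overlapped widely. Sv2b, a vesicle glycoprotein, had 9.74, 10.45 and 10.78 in brain, against 4.88, 5.04 and 5.41 in lung and 9.20, 10.32 and 10.80 in eye; its difference from eye was 0.11 ± 0.09 (adjusted p = 0.254 by limma). Syngr3, a vesicle protein, did separate brain, with 9.76, 11.11 and 11.41, against 5.62, 6.11 and 6.54 in lung and 7.37, 8.36 and 8.59 in eye. Syn2, Cplx1, Stx1a and Syn1 were the other release genes called (smaller differences 2.92, 2.45, 2.27 and 2.18). Over all genes, 91 were above lung by the rule with eye within 0.5 of brain, among them C1ql3, Celf3, Fam169a and Sphkap, and 7 were above eye with lung within 0.5, among them Coro1a, an actin regulator of leukocytes.

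Pairs of related genes, one neuronal and one widespread, behaved differently by list. Of 12 neuronal members 10 were above lung and 4 above both (medians 4.73 and 1.81), and of 11 widespread members 1 was above lung and 0 above both (-0.18 and -0.28, and 0.00 in both with every array set to the same median). Tubb3, the neuronal beta-tubulin, had 11.69, 12.01 and 12.42 in brain, against 4.25, 4.65 and 5.56 in lung and 8.53, 8.96 and 9.49 in eye, differences of 7.36 ± 0.08 and 3.03 ± 0.08. Tubb5, a tubulin of most cells, differed by 0.88 ± 0.06 and 0.82 ± 0.06. Camk2b differed by 4.26 and 2.64 and its relative Camk2d by 1.36 and 0.37. Kif5a, a neuronal kinesin, differed by 4.92 and 2.24, and Kif5b by 0.01 and -0.07. Ptbp2, the splicing regulator of young neurons, was 1.86 above lung and 0.32 above eye, and Ptbp1, its counterpart in progenitors and other cells, was -1.79 and -0.95.

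Some genes of growing neurons were called at this age. Dcx, a microtubule protein of migrating and newly differentiating neurons, had 10.81, 11.22 and 11.63 in brain, against 5.14, 5.85 and 6.50 in lung and 7.94, 8.13 and 8.58 in eye (differences 5.40 ± 0.08 and 3.03 ± 0.08). Gap43, of axonal growth cones, had 13.03, 13.25 and 13.52 in brain, against 8.65, 8.92 and 9.36 in lung and 10.09, 10.46 and 10.98 in eye. Stmn2, a microtubule regulator of growing axons, had 12.94, 13.12 and 13.24 in brain, against 8.35, 8.74 and 9.07 in lung and 9.78, 10.30 and 10.54 in eye. No array of another tissue reached the brain range in these 3 genes. Of 20 immature neuron genes 5 were called (6 without N21 replicate 7; medians 1.81 and 1.27), and of 20 axon growth and guidance genes 3 (1.73 and 1.32), besides Gap43 the adhesion molecules Cntn1 (6.13 and 2.47) and L1cam (3.82 and 2.32). In the axon list 1 gene, Slit2, was below lung by the rule (-2.51). None of 13 progenitor and radial glia genes was called above both (medians -1.26 and -0.01; 0.04 and 0.28 against eye under joint quantile normalization and equal medians), and 4 were below lung and 2 below eye. Its highest member, Fabp7, a fatty acid binding protein of radial glia and astrocytes, was 6.44 above lung and 1.46 above eye.

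The chloride transporters that set the action of GABA gave a mixed picture. Slc12a5 (KCC2), which exports chloride from maturing neurons, had 8.97, 10.23 and 10.51 in brain, against 5.59, 5.91 and 6.29 in lung and 7.68, 8.51 and 9.19 in eye. It was 4.20 ± 0.10 above lung and 1.60 ± 0.10 above eye. Slc12a2 (NKCC1), which imports chloride and is used by many epithelia, had 8.24, 8.72 and 9.17 in brain, against 9.43, 10.04 and 10.26 in lung and 8.60, 8.93 and 9.16 in eye. It was lower in brain than in lung (-1.25 ± 0.07) and -0.20 ± 0.07 from eye, which became 0.08 with every array set to the same median. Neither was called higher or lower than in both tissues.

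Astrocyte genes were well represented. Of 16 measured, 11 were above lung and 6 above both (7 without N21 replicate 7; medians 2.70 and 1.24). Aqp4, the water channel of astrocyte endfeet, had 10.03, 10.64 and 11.13 in brain, against 6.20, 6.64 and 6.97 in lung and 6.48, 7.26 and 7.94 in eye (differences 4.02 ± 0.09 and 3.33 ± 0.09). Bcan (brevican), a proteoglycan of the perineuronal matrix made by glia, had 9.11, 10.29 and 10.71 in brain, against 5.19, 5.58 and 6.16 in lung and 5.94, 7.01 and 7.27 in eye. Both separated brain from the other tissues. Gpr37l1 (2.67) and Aldh1l1 (2.64) of the list were called as well, by their smaller difference, as was Ncan (neurocan, 3.46) of the perineuronal matrix list, in which 3 of 10 genes were called. Slc1a2, the main glial glutamate transporter, and Aldoc, the astrocyte aldolase, were 5.06 and 4.89 above lung but 1.19 and 1.02 above eye.

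Few oligodendrocyte genes were called. Of 14 precursor genes 3 were called (medians 1.79 and 1.15), and of 15 myelinating genes 0 were called, with 3 above lung (1.17 and 0.07); the difference between the lists was not tested. Olig1, a factor of the whole lineage, had 9.09, 9.61 and 9.79 in brain, against 5.45, 5.83 and 6.27 in lung and 6.00, 6.47 and 7.17 in eye. Gpr17, a receptor of cells about to become oligodendrocytes, had 8.36, 8.88 and 9.30 in brain, against 5.39, 5.60 and 5.82 in lung and 5.71, 6.35 and 6.86 in eye. In both, brain lay above all other arrays. Mag, a myelin adhesion protein, had 6.33, 7.65 and 9.75 in brain, against 5.14, 5.44 and 5.89 in lung and 6.26, 6.92 and 7.58 in eye, so that brain and eye overlapped. Ugt8a, which makes a myelin lipid, was 2.73 above lung and 0.00 from eye. Whether the sampled eye included optic nerve is not stated. Of 10 cholesterol synthesis genes, a pathway on which myelin and synapse growth draw, 1 was called: Hmgcs1 had 11.73, 12.25 and 12.48 in brain, against 8.93, 9.22 and 9.84 in lung and 9.42, 10.17 and 10.44 in eye (list medians 2.14 and 1.39). Sqle and Msmo1 of the same pathway were 2.6 and 2.54 above lung and 1.71 and 1.51 above eye.

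Vascular, immune and barrier cells gave few calls. Slco1c1, a thyroid hormone and organic anion carrier of the blood-brain barrier, had 8.92, 9.43 and 9.94 in brain, against 4.75, 5.06 and 5.24 in lung and 5.71, 6.19 and 6.75 in eye. It was the only one of 16 brain endothelial genes called higher than in both tissues (medians 0.83 and 0.49). Mfsd2a, a lipid carrier of the barrier, was 3.62 above lung and 1.47 above eye, and Slco1a4 3.38 and -0.38. Slc2a1 of this list was below eye by the rule (-2.19). By the rule 0 of its genes were below lung, the lowest being Cldn5 (-1.54). Of 10 general endothelial genes 7 were below lung, such as Cdh5 (-3.57) and Emcn (-3.63). None of 15 microglial genes was called, with medians of 0.25 and 0.17. Tmem119, a marker of mature microglia in adult brain, had 5.88, 6.09 and 6.50 in brain, against 7.87, 8.30 and 9.11 in lung and 6.80, 7.14 and 7.53 in eye, below every array of the other tissues (-2.24 ± 0.08 and -1.0 ± 0.08). These were the lowest differences of the microglial list, whose medians were positive, so Tmem119 does not stand for the list. Ttr, the transthyretin of choroid plexus and also of retinal pigment epithelium, had 12.21, 12.55 and 13.16 in brain, against 3.87, 4.42 and 4.79 in lung and 11.74, 12.19 and 12.56 in eye. It was 8.14 ± 0.07 above lung and 0.43 ± 0.08 above eye. None of 14 choroid plexus genes and none of 12 ependymal genes was called higher than in both tissues. Aqp1 of the choroid plexus list was lower than in both (-5.32 and -3.22).

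**Figure D3:**
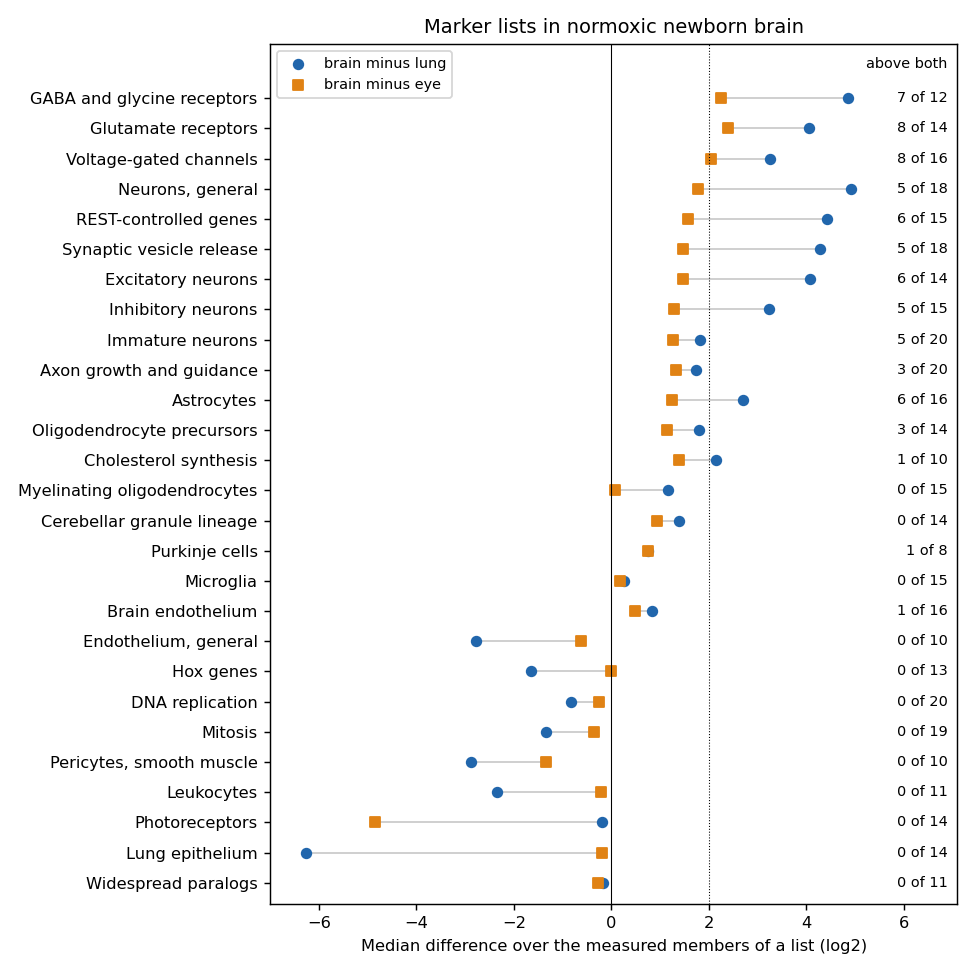
Median brain minus lung (circles) and brain minus eye (squares) difference, on the log2 scale, over the measured genes of 27 lists, with the number higher in brain than in both tissues at the right. Receptor and channel lists lie at or right of the dotted line at 2 in both comparisons, while myelinating, microglial and dividing-cell lists lie near or left of 0 against eye.

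Genes lower in brain included those of matrix, of contractile cells and of the other tissues' own cell types. Dpt (dermatopontin), of the connective tissue matrix, had 3.58, 4.03 and 4.71 in brain, against 11.24, 11.67 and 11.93 in lung and 8.94, 9.69 and 9.87 in eye (-7.59 ± 0.09 and -5.47 ± 0.09). Col3a1, a fibrillar collagen, had 7.02, 8.05 and 8.37 in brain, against 11.19, 12.35 and 12.57 in lung and 10.36, 12.27 and 12.66 in eye. Acta2, the smooth muscle actin, had 7.54, 8.24 and 8.53 in brain, against 12.09, 12.64 and 12.88 in lung and 10.66, 11.10 and 11.94 in eye. All brain arrays lay below all others in these genes, as in 134 of the 136 genes lower than both, beside 6.25% of all genes. Aspn, Postn, Actc1, Anxa1 and Cd36 were further members of the 12 largest. Of 14 lung epithelial genes 13 were below lung (4.47% of all genes were), led by Scgb1a1 (-10.67) and Sftpc (-9.16), and of 14 photoreceptor genes 13 were below eye (2.39% of all genes were), as were 15 of 15 lens genes.

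Genes of dividing cells were not called higher in brain. Of 19 mitosis genes none was called, with medians of -1.35 against lung and -0.36 against eye, and of 20 DNA replication genes none, with -0.83 and -0.25 (0.04 against eye with every array set to the same median). Mki67, a protein of cycling cells, had 6.78, 7.60 and 7.97 in brain, against 8.45, 9.44 and 10.01 in lung and 7.34, 7.71 and 8.70 in eye. All brain values were below all lung values and overlapped those of eye. Immediate early genes, which neuronal activity and stress induce, gave 0 of 12 called higher (-0.31 and -0.05; the value against eye was 0.21 and 0.23 under joint quantile normalization and equal medians); Btg2, an antiproliferative early gene, was -1.96 and -2.93.

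Among the brain arrays, the means of the cerebellar granule lineage list and the Hox list had wider ranges (1.24 and 0.99) than the general neuronal list (0.53). The mean of the cerebellar granule lineage list was 6.98 to 7.08 in 5 arrays (N100 replicates 2 and 7, N21 replicates 2, 5 and 6) and 7.57 to 8.22 in the other 13. The same 5 arrays were the 5 lowest for the Purkinje list (7.31 to 7.41, next 7.53, highest 8.16) and for the mitosis list (6.31 to 6.57, next 6.75, highest 7.5). By contrast the general neuronal list ranged only from 10.64 to 11.17. The range of the Purkinje list (0.85) was near those of the astrocyte (0.83) and vesicle release (0.76) lists. Of these 5 arrays 4 lay in the first, group-ordered run of sample records, which holds 13 of the 18, and the part of the order of records in this pattern was not tested.

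Members of these lists with wide ranges are given by their values, and since they enter the list means they are not separate evidence of the pattern. Neurod1 of the granule list, a factor of granule neurons and of photoreceptors, had 7.40 to 7.57 in the 5 arrays and 8.49 to 10.19 in the others, and in whole-tissue terms was 5.18 above lung and 2.74 below eye. Genes outside the naming rule, looked up after this pattern was seen, were the granule list's Atoh1, the factor of dividing granule precursors (4.96 to 5.64 in the 5 arrays, 5.97 to 7.51 in the others), Gabra6, a receptor subunit of mature granule cells (3.85 to 4.34 and 4.54 to 6.83), and the Purkinje list's Pcp2 (5.17 to 5.91 and 5.97 to 7.19). Calb1, the only Purkinje gene called above both tissues (5.09 and 2.53), did not split in this way. It was 8.43 to 8.80 in the 5 arrays and 8.34 to 10.17 in the others. Mki67 of the mitosis list had 6.78 to 7.01 and 7.39 to 7.97. For the myelinating list, which ranged from 6.49 to 8.43, 4 of these 5 arrays were among the 5 lowest, and N21 replicate 1 was highest, ahead of the next at 7.76. Mbp, a structural protein of myelin and also outside the rule, ranged from 7.68 to 10.20. Hoxa5, a homeobox gene of the caudal hindbrain and spinal cord, was 4.29 to 5.99 in 14 arrays and 6.60, 7.12, 7.23 and 7.32 in N21 replicates 7, 9 and 1 and N100 replicate 3. Both oxygen groups held high and low arrays. Hoxa5 had the largest SD over brain arrays in the Hox list (1.055) and Hoxb4 the smallest (0.147). The 5 lowest arrays for the Hox list held 3 of the 5 low arrays of the granule list. Across the Hox list 0 of 13 genes were called above either tissue and 5 were called below lung. The 40 hypoxia brain arrays spanned much the same ranges, 6.93 to 8.27 for the granule lineage list and 6.96 to 10.29 for Neurod1.

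**Figure D4:**
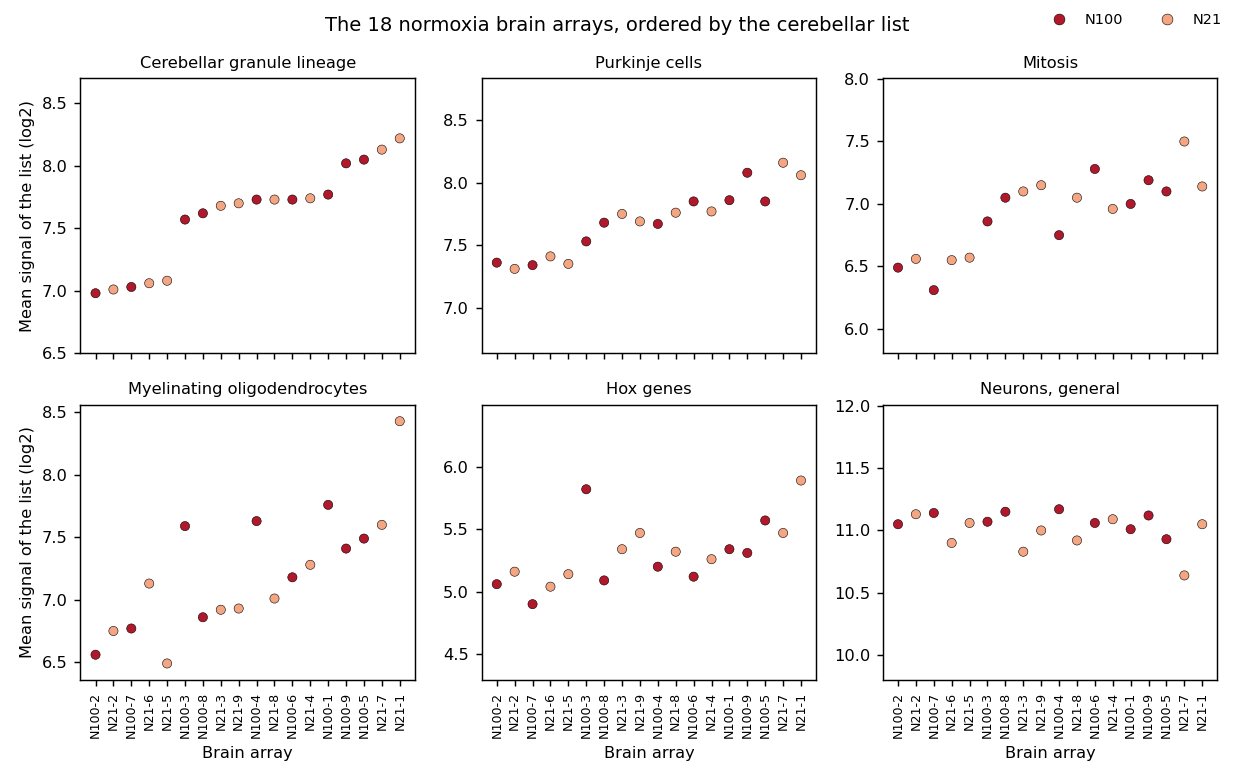
List means (log2 signal) in each of the 18 brain arrays, with arrays ordered by the cerebellar granule lineage list. The 5 arrays at the left are also the lowest for the Purkinje and mitosis lists, while the general neuronal list stays between 10.64 and 11.17.

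Oxygen for 30 min left no called difference within normoxic brain. For N100 minus N21, 0 of 19937 genes passed an adjusted p of 0.05 (limma), and 1052 (5.28%) had an unadjusted p under 0.05. Among the 360 genes 31 (8.61%) did, with a median difference of 0.08 beside 0.01 over all genes and a smallest adjusted p of 0.892. Without N21 replicate 7, these became 12 of the 360 and 519 of all genes, with a median of 0.06 for the 360. Differences of the 360 ran from -0.25 to 0.37. The largest named was Ddn, at 9.47 ± 0.21 in N100 and 9.09 ± 0.46 in N21 (SD, n = 9 each), a difference of 0.37 ± 0.12 (SE, adjusted p = 0.892 by limma). Agap2 and Epb41l1 differed by 0.26 and 0.29. Over all genes the smallest p belonged to Magea6, at 2.98 ± 0.18 in N100 and 3.44 ± 0.25 in N21 (adjusted p = 0.828 by limma), a gene of a melanoma antigen family. With array quality weights it became the 1 gene called, at -0.51 (adjusted p = 0.00808 by limma). The interaction of tissue with oxygen gave 0 called genes for brain against lung and for brain against eye, with 459 and 434 at an unadjusted p under 0.05.

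The hypoxia groups supplied other mice of the same age: 40 brain, 41 lung and 38 eye arrays, after 3 arrays that carried the profile of another tissue were left out. The same rule called 366 genes there (1.84%), and 345 were shared, which is 95.8% of the 360 and 94.3% of the 366. Of the 154 genes lower there (0.772%), 131 were among the 136. All 360 kept their direction, and the lowest smaller difference among them was 1.81. With the 3 arrays included, all from the groups given 40% oxygen, 330 were shared. The 15 genes not called had smaller differences of 2.0 to 2.13 in normoxia. The shift in the smaller difference had a median of 0.02 and ran from -0.45 to 0.40. Neurod6 was 6.47 above lung and 5.88 above eye in these arrays, Gabra5 6.25 and 4.93, Sst 4.96 and 4.19, Dcx 5.80 and 3.10, and Aqp4 3.90 and 3.38. Syt1 and Nefl again stood near eye, at 1.09 and 1.26 above it. At the threshold in normoxia, the called genes Anks1b, Phyhipl and Gpr22 had smaller differences of 2.01, 2.01 and 2.0, and the uncalled Aplp1, Htr2a and Dmtn stayed just short of it, each rounding to 2.0.

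The genes higher in brain had long spans on the chromosome, a property the rule did not use. Among protein-coding genes with a RefSeq span (GRCm38.p6), 354 of those higher in brain had a median of 65.3 kb, against 25.3 kb for the 136 lower in brain and 19.2 kb for all 18555. Of the 354, 152 (42.9%) were over 100 kb, as were 12.2% of all. In the longest decile of genes, 116.1 to 2390.4 kb, 7.33% were higher in brain, and in the other deciles 0.216% to 2.26%. The 14 over 1000 kb included Lrp1b (2058 kb), Dlg2 (1973 kb), Rbfox1 (1528 kb), Dpp10 (1514 kb) and Erbb4 (1077 kb), of which the first 4 were named for their length after values were seen. Dlg2 is a scaffold of the postsynaptic density, Rbfox1 a splicing factor of neurons and Erbb4 the neuregulin receptor of interneurons. The 90 genes above lung with eye within 0.5 of brain had a median of 60.3 kb.

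**Figure D5:**
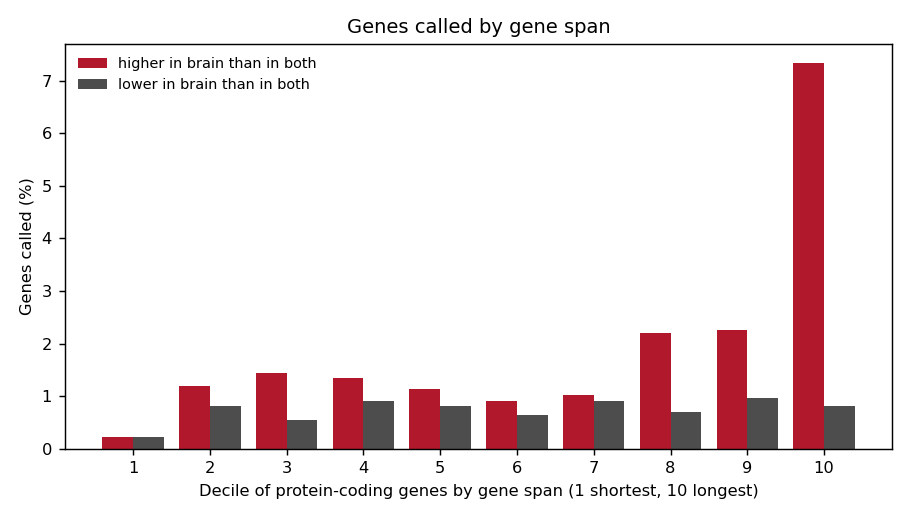
Share of protein-coding genes called higher in brain than in lung and eye (red), in percent, by decile of gene span in RefSeq from short to long, with genes lower than both in grey. The longest decile reaches 7.33%, and the other deciles lie between 0.216% and 2.26%.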

How the data were processed

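The authors deposited log2 values after RMA, per the submitters' processing notes; its version is not given in the sources used here. RMA corrects background, equalizes array distributions and summarizes probes, and it appeared to have been run within each tissue, so small differences between tissues were not read. Of 34760 probe sets, a single gene symbol belonged to 21640 in the platform annotation, several to 1321 and none to 11799; 21553 were matched to RefSeq by Entrez identifier. For each gene the probe set with the highest mean over tissues was used. The fit was made in R 4.3.3 with limma 3.58.1 (lmFit, eBayes, 6 group means, two-sided) and data.table (version 1.17.8), and was tested on simulated data. The number of arrays limits the precision; no depth applies. Of 620 listed genes 566 were measured, and the others were not analysed here. Members, lists and rules were chosen with earlier results of these data known. Named were Syt1 and Nefl, the 25 genes highest and 12 lowest by the smaller difference, up to 4 called and 2 other members per list, the paralog lists, the most variable called genes, genes shared with eye or lung, the smallest p for oxygen and genes at the threshold. Alternatives covered scaling, threshold, filters, probe sets, groups, weights, blocks and arrays left out.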

Additional observations from a re-analysis of the deposited data

Results flagged for a closer look

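Of 114 checks of a brain group of 9 arrays for 1 array apart from the rest (a gap over range above Dixon's 95% limit), 11 (9.65%) found one, and 7 of these fell on N21 replicate 7, the array that also correlated least with the other brain arrays. In that array the synaptic vesicle list averaged 9.64, with the other N21 arrays between 10.00 and 10.30, and the excitatory neuron list 8.75 (others 8.98 to 9.18). Among genes it had Gad1 at 9.43 (10.19 to 10.58), Syngr3 at 9.76 (10.85 to 11.32), Slc12a5 at 8.97 (9.88 to 10.40), Bcan at 9.11 (10.23 to 10.35) and Col3a1 at 7.02 (7.77 to 8.32). N100 replicate 6 was low for Slc12a5 (9.31, others 10.08 to 10.51) and for Bcan (9.67, others 10.22 to 10.71). N21 replicate 3 was low for the barrier carrier Slco1c1 (8.92, others 9.37 to 9.64). N21 replicate 8 was high for the meninges and fibroblast list, which includes collagens (8.61, others 7.95 to 8.27). Some flags of this kind arise by chance in so many checks.

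Probe sets without a single gene symbol took no part in the comparisons. Of 13120 such probe sets, 54 exceeded both lung and eye in brain by the same rule.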

How the results depend on the processing

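The counts of 360 genes higher and 136 lower than in both tissues, 1162 above lung and 413 above eye moved mainly with the size required. With over 1 on the log2 scale they were 1384, 896, 2556 and 1591, and with over 3 they were 60, 28, 574 and 65. Setting every array to the same median, which moved the median of all genes by 0.18 against lung and 0.28 against eye, gave 630 genes above eye. Array quality weights gave 1 gene for N100 minus N21 in brain, Magea6. With the replicate number as a block the first count was 361, and no other count crossed 1.5 times; the labels do not say that a number marks 1 animal, and 29 of 36 correlations of same-numbered arrays, not all, were over 0.1 (range -0.07 to 0.67). For 20 of 36 the own number gave the highest correlation, a hint of shared animals from the data and not from the design. Without N21 replicate 7, chosen after seeing the data, the first count was 369. The 13 arrays per tissue in the first run of sample records gave 363. Of 75 named genes higher in brain, 70 kept their call in all 9 settings tried on them; Epb41l1, Phyhipl, Gpr22, Anks1b and Mir137, all near the threshold, lost it in at least 1, as did Mfap4 among 16 lower genes (-1.86 against eye with equal medians). No named gene reversed a call. Signal near background limits differences of dim probe sets.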

Other observations

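One brain array carried transcripts of bone. In N21 replicate 8, Col1a1, the main collagen of bone and skin, was at 11.43, with the other 17 brain arrays between 7.96 and 9.26. Ibsp, a bone matrix protein, was at 7.93 (others 3.99 to 4.69), Mmp13, a collagenase of growing bone, at 8.03 (4.35 to 5.35), and Ctsk, the osteoclast protease, at 8.68 (5.53 to 6.47). These 4 genes were picked after their values were seen, and each stood apart from all other arrays of normoxic brain. The same array was highest of the 18 for the meninges and fibroblast list, which holds Col1a1, and its general neuronal list, at 10.92, lay within the range of the others.

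Of the 18555 protein-coding genes with a RefSeq span, 354 were higher in brain than in both tissues. Among the autosomes and chromosome X, their share of these protein-coding genes was highest on chromosome X (3.64%) and lowest on chromosome 17 (0.342%).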
